A study of Mus musculus with 12 samples.

Results

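Titin (Ttn), obscurin-like 1 (Obsl1) and the 3 myomesin genes Myom1, Myom2 and Myom3 were followed in hearts of mice with alterations in cardiac myosin-binding protein C, in a calcium-binding protein, or in both. The 5 genes were chosen by symbol, and all 5 had a row among the 17379 genes of the deposited table and passed the filter on low counts. The data were 12 heart mRNA libraries from mice on a C57BL background aged 6 months, 3 for each of 4 groups. Compound hearts came from mice with 1 HRCS96A allele together with the homozygous 25 bp deletion in MYBPC3 (MYBPC3Δ25bp), and all 3 were female. MYBPC3 deletion hearts came from mice homozygous for MYBPC3Δ25bp alone, and HRC variant hearts from mice heterozygous for HRCS96A alone. The hearts they were set against were nontransgenic. All HRC variant mice were female, while the MYBPC3 deletion group and the nontransgenic group each held 2 males and 1 female. The sources used here do not name the promoters, the founder lines or the part of the heart sampled. Apart from sex, the labels say no more of the replicates than that they are separate samples. The MYBPC3 deletion and nontransgenic groups, with both sexes, held more than 1 mouse each. The labels do not say that every library came from its own mouse. Every p-value here rests on the spread between libraries, which may in part be technical.

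Titin is a giant protein that runs from the Z-disc, where thin filaments are anchored, to the M-band at the middle of the thick filaments, and its spring segment gives resting heart muscle much of its elasticity. At the M-band the myomesins crosslink neighbouring myosin filaments and hold the end of titin. Obscurin-like 1 binds both titin and myomesin there, and cardiac myosin-binding protein C lies along the same thick filament beside titin.

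Total counts lay between 15615182 and 20581197 per library. Levels are CPM, read counts scaled to a common library size with trimmed mean of M values. Comparisons between genes use the authors' TPM, which are per transcript length. Mybpc3 was read in every group, with 3704 ± 199.6 CPM in compound hearts, 2638 ± 244.9 CPM in MYBPC3 deletion hearts, 3347 ± 477.5 CPM in HRC variant hearts and 4012 ± 758.0 CPM in nontransgenic hearts (SD, n = 3 each). Hrc averaged 1185 ± 38.7 CPM in compound hearts, 1082 ± 112.6 in MYBPC3 deletion hearts, 1162 ± 189.7 in HRC variant hearts and 1129 ± 223.4 in nontransgenic hearts. A short deletion or a changed residue leaves a transcript that is still counted, so neither gene checks the genotype labels. The 6 markers of heart muscle summed to between 58300 and 91500 CPM in every library. Of 11 skeletal muscle markers, 10 were in the table, and they summed to 3.98 to 4.66 CPM in compound hearts, 7.67 to 10.4 in MYBPC3 deletion hearts, 3.16 to 12.6 in HRC variant hearts and 9.35 to 14.2 in nontransgenic hearts. Of these, Myh1, Myh2 and Myog were at 0 in 8, 9 and 11 of the 12 libraries, Myod1 in 6 and Pvalb in 1, while Tnnt3, Tnni2, Mylpf, Actn3 and Atp2a1 were at 0 in none, with Atp2a1 the highest at up to 9.89 CPM. The libraries differed in atrial markers, of which 15 summed to 325 to 690 CPM in compound hearts, 4230 to 7080 in MYBPC3 deletion hearts, 380 to 9980 in HRC variant hearts and 4010 to 10200 in nontransgenic hearts. In bulk tissue fewer cells of a type and less RNA per cell cannot be told apart.

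The genes lie on 5 chromosomes of GRCm38.p6, the build in the submitters' processing notes. The deposited table places Ttn (gene 22138) on chromosome 2 from 76698169 to 76982564, Obsl1 (gene 98733) on chromosome 1 from 75474674 to 75506658, Myom1 (gene 17929) on chromosome 17 from 71002288 to 71393284, Myom2 (gene 17930) on chromosome 8 from 15057653 to 15133420, and Myom3 (gene 242702) on chromosome 4 from 135758796 to 135815571. Each value is a sum over the whole gene, so no isoform was measured. The table gives the plus strand for Ttn, where GENCODE M21 has the minus strand, and the table's Myom1 interval runs on past the GENCODE end at 71126856, over the neighbouring genes Lpin2 and Emilin2 and into Smchd1. The Myom1 values, its TPM and its ratio to Myom2 may therefore hold reads of neighbouring genes, if the authors' gene model merged them. The sources used here do not say whether reads were counted by strand, so Ttn reads cannot be told apart from those of an antisense gene that overlaps it.

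The start sites of Ttn and of the myomesins Myom1 and Myom3 are shown because each held a match to a motif of a muscle transcription factor, in a pair of genes with many reads and in the myomesin that had few. The sequences are RefSeq promoter sequence on GRCm38.p6, printed 5′ to 3′ in the direction of transcription, from base -180 to base -1 before the RefSeq start, except for Myom1, which stops at base -37 where a GENCODE exon begins. The Myom1 window lies inside the gene, which begins at 71002288 in the deposited table and at 71002633 in GENCODE, so its start is an internal one. Capitals mark a match to the MEF2 motif in Ttn and Myom3 and to the CArG box, the motif of serum response factor, in Myom1.
Ttn, chr2:76982548-76982727, minus strand: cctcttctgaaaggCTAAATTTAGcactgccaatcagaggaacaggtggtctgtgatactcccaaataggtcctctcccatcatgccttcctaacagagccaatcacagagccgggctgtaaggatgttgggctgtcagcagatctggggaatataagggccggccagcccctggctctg
Myom1, chr17:71019377-71019520, plus strand: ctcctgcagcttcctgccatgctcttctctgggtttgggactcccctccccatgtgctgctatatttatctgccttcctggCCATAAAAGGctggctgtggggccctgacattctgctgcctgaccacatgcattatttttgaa
Myom3, chr4:135759535-135759714, plus strand: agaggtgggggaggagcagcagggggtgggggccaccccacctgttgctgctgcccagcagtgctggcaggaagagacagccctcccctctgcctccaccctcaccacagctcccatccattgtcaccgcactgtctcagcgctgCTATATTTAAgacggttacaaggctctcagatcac

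Motifs were sought on both strands in the 250 bases before the RefSeq start. The promoter source held no entry for Myom2, so the windows searched were those of Ttn, Obsl1, Myom1 and Myom3. The MEF2 match lay at bases -166 to -157 in Ttn and at -35 to -26 in Myom3, and 2.92% of 32851 promoters of that length held one. The CArG match lay at -99 to -90 in Myom1, and 1.47% of promoters held one. E-boxes (CANNTG), the sites of myogenic and other helix-loop-helix factors, occurred once each in Ttn and Myom3, at 3 places in Myom1 and at 4 in Obsl1, and in 66.2% of all promoters. None of the 4 windows held TATAAA or the M-CAT motif CATTCC, which were found in 12.4% and 12.6% of promoters. A match describes these letters and does not show binding.

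Per length in the authors' TPM, Myom1 and Myom2 had the highest levels. The median over the 12 libraries was 445 TPM for Myom1, the general striated-muscle myomesin, and 332 TPM for Myom2, also called M-protein, which is typical of adult heart and fast skeletal muscle. Ttn, with its long transcript, had a median of 66.2 TPM, although its reads came to 0.229% to 0.476% of the scaled library size, as CPM. This order depended on the length used, since CPM per kb of the longest GENCODE transcript gave 252 for Myom1, 196 for Myom2 and 31.2 for Ttn, and per kb of the median transcript 604 for Myom1, 1330 for Myom2 and 1590 for Ttn. Obsl1 had 28.4 TPM, and Myom3, a myomesin of skeletal muscle fibres, had 1.5 TPM. The ratio of the highest to the lowest CPM among the 12 libraries was similar for the 5 genes, with 2.08 for Ttn, 2.04 for Obsl1, 1.6 for Myom1, 2.17 for Myom2 and 1.94 for Myom3.

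**Figure D1:**
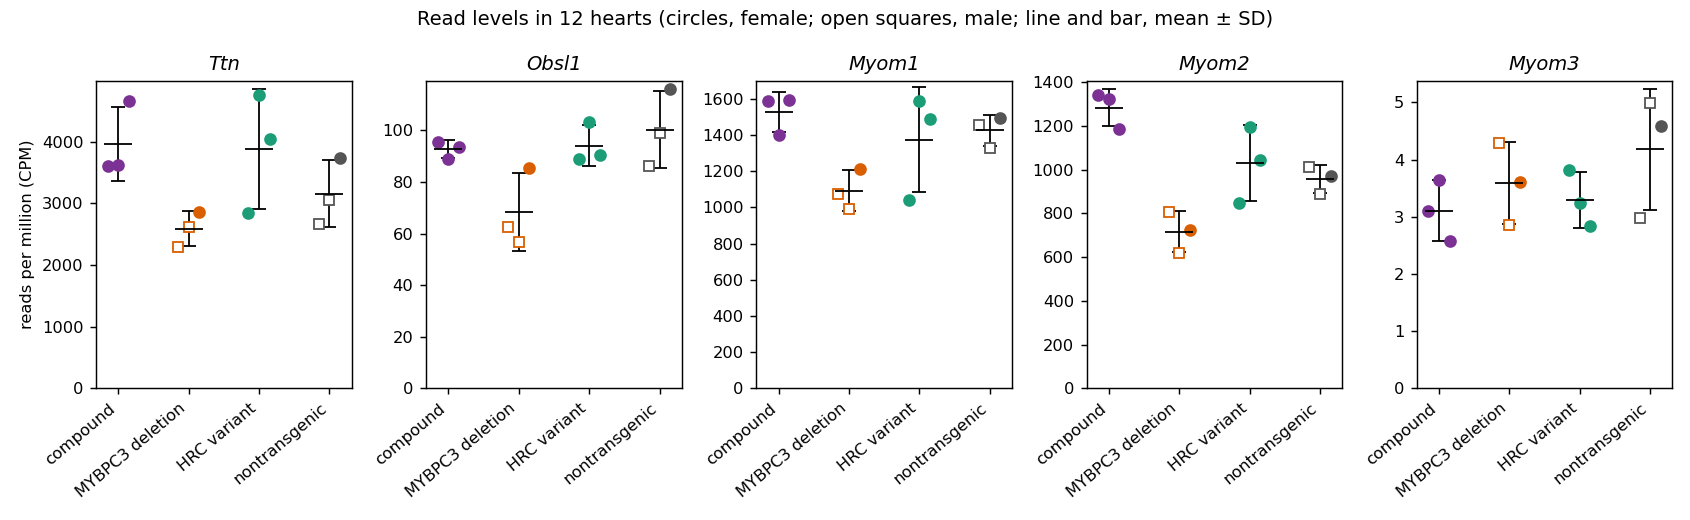
Level of each gene (CPM, linear axis from 0) in the compound, MYBPC3 deletion, HRC variant and nontransgenic hearts. Filled circles are females, open squares males, and the line and bar are the mean and SD of 3 hearts. Myom2 lies at 1189 to 1343 CPM in compound hearts, above the 619.5 to 805.8 CPM of MYBPC3 deletion hearts.

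Myom2 showed the widest separation between groups. It had 1343, 1324 and 1189 CPM in compound hearts, 805.8, 619.5 and 722.7 CPM in MYBPC3 deletion hearts, 848.2, 1196 and 1045 CPM in HRC variant hearts, and 1014, 887.1 and 971 CPM in nontransgenic hearts. Every compound heart was above every MYBPC3 deletion heart and every nontransgenic heart, and every MYBPC3 deletion heart was below every nontransgenic heart, whereas the HRC variant hearts overlapped the compound and the nontransgenic hearts. In the order of means the compound hearts came highest (1285 ± 84.0 CPM), then the HRC variant hearts (1030 ± 174.4 CPM), the nontransgenic hearts (957.4 ± 64.5 CPM) and the MYBPC3 deletion hearts (716.0 ± 93.3 CPM). Of neighbours in that order, the ranges of nontransgenic and MYBPC3 deletion hearts did not overlap.

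Myom1 followed a similar order with smaller steps. Its CPM were 1590, 1398 and 1592 in compound hearts, 1073, 992.3 and 1215 in MYBPC3 deletion hearts, 1043, 1589 and 1490 in HRC variant hearts, and 1454, 1329 and 1494 in nontransgenic hearts. The MYBPC3 deletion hearts lay below all compound and all nontransgenic hearts, and HRC variant replicate 1 fell among them. Neighbours in the order of means all overlapped, from compound (1527 ± 111.4 CPM) through nontransgenic (1426 ± 86.1) and HRC variant (1374 ± 290.9) to MYBPC3 deletion hearts (1093 ± 112.7).

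Ttn had 3610, 3616 and 4661 CPM in compound hearts, 2287, 2616 and 2864 CPM in MYBPC3 deletion hearts, 2841, 4761 and 4047 CPM in HRC variant hearts, and 2664, 3055 and 3738 CPM in nontransgenic hearts. Compound hearts were all above MYBPC3 deletion hearts, and every other pair of groups described here overlapped. Its means were 3962 ± 605.1 CPM in compound, 2589 ± 289.4 in MYBPC3 deletion, 3883 ± 970.4 in HRC variant and 3152 ± 543.6 in nontransgenic hearts, and neighbours in the order of means overlapped.

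Obsl1, the cytoskeletal adaptor, had its lowest levels in the 2 male MYBPC3 deletion hearts. It had 95.5, 88.8 and 93.7 CPM in compound hearts, 62.5, 56.8 and 85.5 CPM in MYBPC3 deletion hearts, 89.0, 103.1 and 90.3 CPM in HRC variant hearts, and 86.1, 98.9 and 116 CPM in nontransgenic hearts. The female MYBPC3 deletion heart, at 85.5 CPM, was just below the lowest compound heart and the lowest nontransgenic heart, and the female nontransgenic heart, at 116 CPM, was the highest of the 12. The group means were 92.7 ± 3.49 CPM in compound, 68.3 ± 15.2 in MYBPC3 deletion, 94.1 ± 7.80 in HRC variant and 100.3 ± 15.01 in nontransgenic hearts. Of neighbours in the order of means, only compound and MYBPC3 deletion hearts had ranges that did not overlap.

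Myom3 was measured from few reads, 45 to 97 per library. Its CPM were 3.10, 3.65 and 2.57 in compound hearts, 4.30, 2.85 and 3.61 in MYBPC3 deletion hearts, 3.81, 3.24 and 2.83 in HRC variant hearts, and 2.98, 4.98 and 4.58 in nontransgenic hearts. All groups overlapped.

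For the groups compared, differences were fitted with edgeR's quasi-likelihood test over 13849 genes, with group and sex as terms, with a gene called where its Benjamini-Hochberg adjusted p was under 0.05. The first comparison asked how the MYBPC3 deletion alone altered the genes. All 5 had a lower fitted value in MYBPC3 deletion hearts than in nontransgenic hearts, with a median log2 difference of -0.39 against -0.005 over all tested genes, and none was called, as edgeR called 0.0% of all genes. At an unadjusted p under 0.05, edgeR listed 3 of the 5 genes and 1130 of all 13849, and the smallest adjusted p of any gene was 0.184. The count of 3 became 1 without nontransgenic replicate 1 or 3 or MYBPC3 deletion replicate 2 or 3, and 2 without MYBPC3 deletion replicate 1, and the 1130 became 667 without MYBPC3 deletion replicate 2. Obsl1 had a log2 difference of -0.57 (SE 0.11; edgeR adjusted p = 0.282), the tenth-smallest p of all genes. DESeq2, fitted with the same terms, called Obsl1 (-0.58, adjusted p = 0.00078). It called 0.963% of the 9549 genes to which it gave an adjusted p. It called neither Ttn, Myom1 nor Myom2 and gave no adjusted p for Myom3. The log2 difference was -0.42 (SE 0.16) for Myom2, -0.39 (SE 0.16) for Myom1, -0.28 (SE 0.19) for Ttn and -0.22 (SE 0.29) for Myom3, with edgeR adjusted p from 0.52 to 0.901. Obsl1, Myom1 and Myom2, 3 of the 5, had MYBPC3 deletion ranges wholly below the nontransgenic ranges, as did 5.5% of all genes. Among the female hearts alone the Obsl1 log2 difference was -0.43, a value of 1 heart against 1 heart. Fibroblast markers moved with this comparison, as 5 of 5 were in the table and summed to 1060 to 1320 CPM in compound hearts, 1720 to 1950 in MYBPC3 deletion hearts and 1400 to 1530 in nontransgenic hearts. In HRC variant hearts they summed to 1180 to 2250 CPM, a range that overlapped every other group. The 5 smooth muscle markers summed to 342 to 504 CPM in compound hearts, 567 to 1950 in MYBPC3 deletion hearts, 464 to 952 in HRC variant hearts and 493 to 951 in nontransgenic hearts. The part of these cells in the results was not tested.

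The HRC variant alone was set against nontransgenic hearts to ask what the single change in the calcium-binding protein did. No gene of the 5 separated the groups, while 7.94% of all genes did in one direction or the other, and edgeR called 0.0%. The log2 difference was 0.11 (SE 0.23) for Ttn, 0.09 (SE 0.19) for Myom2, -0.17 for Myom1, -0.37 (SE 0.14) for Obsl1 and -0.41 for Myom3. Obsl1, with an edgeR adjusted p of 0.715, was the 1 gene of the 5 with an unadjusted p under 0.05, among 863 such genes in all. Its value depended on the sex term, since without it the log2 difference was -0.09. DESeq2 called none of the 5 and 0.181% of all genes.

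Compound hearts against MYBPC3 deletion hearts asked what the HRC variant changed on the background of the deletion. Myom2 was 1.77-fold higher in compound hearts, a log2 difference of 0.83 (SE 0.20; edgeR adjusted p = 0.862), and had the twelfth-smallest p of all genes. It was not called by edgeR, which called 0.0% of genes, with 794 at an unadjusted p under 0.05 and a smallest adjusted p of 0.548. DESeq2 called Myom2 (0.84; adjusted p = 0.0102), along with 0.0433% of all genes, and none of the other 4. Ttn was higher by 0.41 (SE 0.24; edgeR adjusted p = 0.892), Myom1 by 0.37 (SE 0.20; 0.877) and Obsl1 by 0.18 (SE 0.14; 0.933) on the log2 scale, and Myom3 had -0.28. The ranges of Ttn, Obsl1, Myom1 and Myom2 in compound hearts lay wholly above those in MYBPC3 deletion hearts, which was 4 of the 5 genes and 11.5% of all genes.

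All compound hearts were female, and the sex term could be estimated only within the MYBPC3 deletion and nontransgenic groups, which held 1 female each. Without a sex term the log2 difference was 0.84 for Myom2, 0.61 for Ttn, 0.48 for Myom1 and 0.44 for Obsl1, and among females alone it was 0.82 for Myom2, 0.46 for Ttn, 0.32 for Myom1 and 0.11 for Obsl1. The values among females rest on 1 MYBPC3 deletion heart, whose spread is assumed to be that of the other groups. The authors' deposited table gave a log2 fold change of compound over MYBPC3 deletion hearts of 0.86 for Myom2 (q = 6.4e-08), 0.63 for Ttn (q = 0.00242), 0.50 for Myom1 (q = 0.00578), 0.46 for Obsl1 (q = 0.124) and -0.19 for Myom3 (q = 0.859). A q under 0.05 in the authors' deposited table was reached by 3 of the 5 genes and by 4.24% of 16882 genes. The sources used here do not say whether the authors' test held a sex term.

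**Figure D2:**
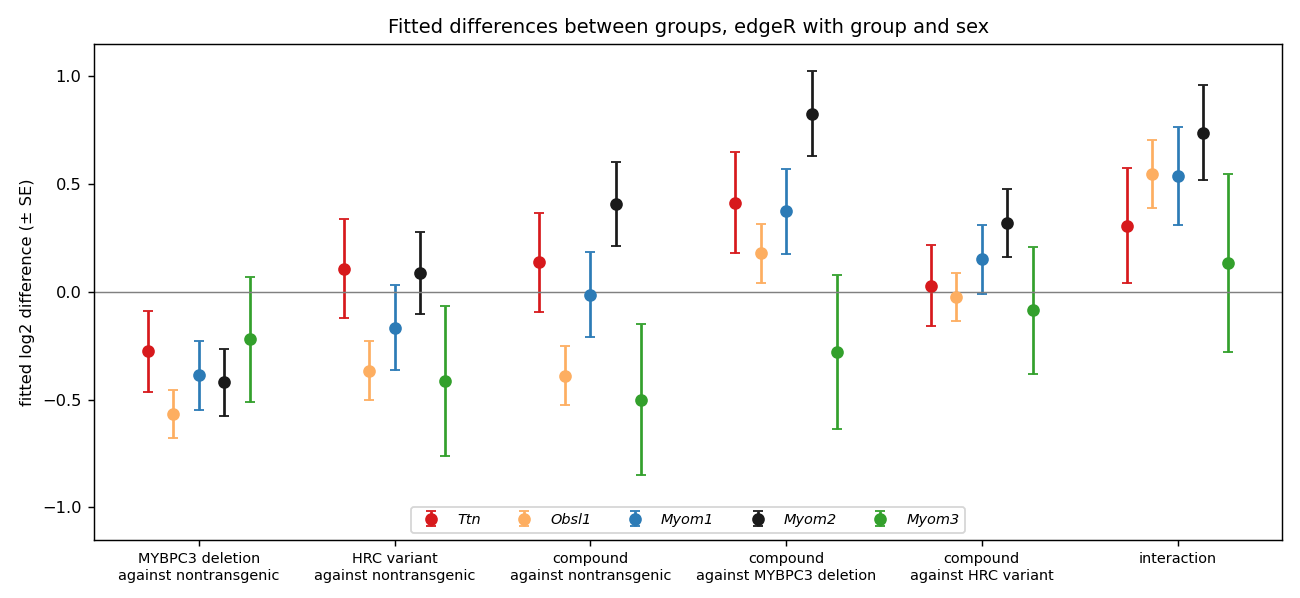
Fitted log2 differences (vertical axis, ± SE) of the 5 genes in 5 comparisons and in the interaction, from edgeR with group and sex over 12 hearts. Myom2 in compound against MYBPC3 deletion hearts stands highest, at 0.83, and all 5 genes lie below 0 in MYBPC3 deletion against nontransgenic hearts.

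Compound hearts were set against nontransgenic hearts to measure both alterations together. Myom2 was the 1 gene of the 5 whose ranges did not overlap, being higher in all compound hearts, as were 8.79% of all genes. Its log2 difference was 0.41 (SE 0.19, edgeR adjusted p = 0.787), and edgeR called 0.0% of all genes. At an unadjusted p under 0.05 edgeR listed 881 genes, of the 5 only Obsl1 and not Myom2. The authors' deposited table gave 0.43 for Myom2 (q = 0.0128), the 1 gene of the 5 past 0.05, where 2.43% of genes passed. The log2 difference was 0.14 for Ttn, -0.01 for Myom1, -0.39 (SE 0.14; edgeR adjusted p = 0.667) for Obsl1 and -0.50 for Myom3. Here too the Obsl1 value depended on the sex term, being -0.11 without it. DESeq2 called none of the 5 and 0.275% of all genes.

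Against HRC variant hearts, compound hearts overlapped for all 5 genes, while 12.4% of all genes separated the groups. The largest log2 difference was that of Myom2, 0.32 (SE 0.16; edgeR adjusted p = 0.801), and the others lay between -0.09 and 0.15. EdgeR called 0.0% of all genes, with 872 at an unadjusted p under 0.05 and none of the 5 among them. DESeq2 called none of the 5 and 0.332% of the 13574 genes to which it gave an adjusted p. In the authors' deposited table none of the 5 genes passed a q of 0.05 for compound against HRC variant hearts, MYBPC3 deletion against nontransgenic hearts or HRC variant against nontransgenic hearts, where 0.389%, 0.0945% and 0.0775% of genes did.

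The interaction asks whether the alterations add up: it is the log2 difference of compound from nontransgenic hearts, minus those of both single mutants. It was above 0 for all 5 genes, at 0.74 (SE 0.22; edgeR adjusted p = 0.516) for Myom2, 0.55 (SE 0.16; 0.508) for Obsl1, 0.54 for Myom1, 0.31 for Ttn and 0.13 for Myom3, against a median of -0.014 over all genes. EdgeR called 0.0% of genes, with 3 of the 5 among 1183 genes at an unadjusted p under 0.05. DESeq2 called Myom2 (0.75, adjusted p = 0.0481) and gave no adjusted p for Myom3. It gave an adjusted p to 5790 genes, fewer than were fitted, and called 0.864% of these. The comparisons with nontransgenic hearts and the interaction share those hearts, so their values are not independent of one another. The same holds for the MYBPC3 deletion hearts. Low values in them would by themselves lower MYBPC3 deletion against nontransgenic and raise both compound against MYBPC3 deletion and the interaction.

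The ratio of Myom2 to Myom1 reads, chosen after its values were seen and given without a test, was 0.845, 0.947 and 0.747 in compound hearts, 0.751, 0.624 and 0.595 in MYBPC3 deletion hearts, 0.813, 0.753 and 0.701 in HRC variant hearts, and 0.697, 0.667 and 0.650 in nontransgenic hearts. The compound ratios overlapped those of MYBPC3 deletion and of HRC variant hearts and lay above the nontransgenic ones. The mean ratio was 0.846 ± 0.100 in compound, 0.657 ± 0.083 in MYBPC3 deletion, 0.756 ± 0.056 in HRC variant and 0.671 ± 0.024 in nontransgenic hearts.

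**Figure D3:**
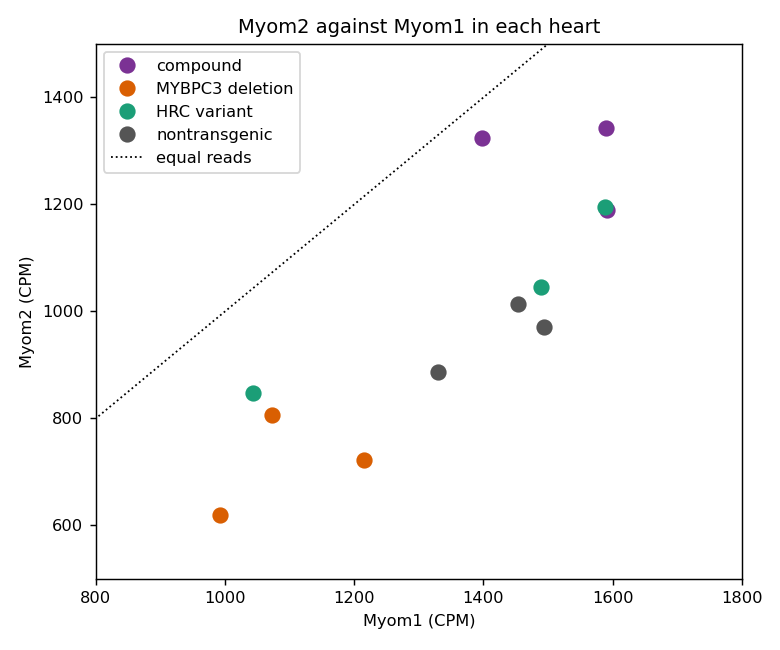
Myom2 (vertical axis) against Myom1 (horizontal axis), both in CPM, with 1 point per heart and the dotted line at equal reads; the axes do not start at 0. All hearts lie below the line, and the 3 MYBPC3 deletion hearts lie lowest, with Myom2 at 619.5 to 805.8 CPM.

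Across the 12 hearts the 6 pairs among Ttn, Obsl1, Myom1 and Myom2 had Pearson's r of 0.629 to 0.845, of which 5 had an adjusted permutation p under 0.05. The permutations exchanged hearts between groups, so group differences that 2 genes share can by themselves make p small. With each heart taken relative to its group mean, the 6 pairs had r of 0.271 to 0.76. The share of all gene pairs with such a p was not computed. For Myom1 and Myom2 Pearson's r of log2 CPM was 0.845 and Spearman's rho 0.818 (permutation p = 0.0006 and 0.0018; adjusted over 10 pairs, 0.0055 and 0.013). Without the 2 hearts farthest from the median of the gene named first r was 0.787, and with each heart taken relative to its group mean it was 0.723. For Ttn and Myom1 r was 0.806 and rho 0.804 (permutation p = 0.0011 and 0.0025; adjusted 0.0055 and 0.013), with 0.743 and 0.76 in the same checks. The relation of Ttn and Myom2 was carried more by the group means, as r was 0.721 (permutation p = 0.0084, adjusted 0.017) and 0.296 within groups, with rho 0.699 (permutation p = 0.014, adjusted 0.028) and r = 0.699 without the 2 farthest hearts. Obsl1 and Myom1 gave r = 0.762 and rho = 0.706 (permutation p = 0.0073 and 0.013, adjusted 0.017 and 0.028). For this pair r was 0.414 without the 2 farthest hearts and 0.533 within groups. Leaving out extreme hearts can itself lower r. The 4 pairs with Myom3 had r between -0.349 and 0.201, with adjusted permutation p of 0.37 or above. These values share libraries and the same scaling.

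The genes whose log2 CPM followed each of the 5 most closely over the 12 hearts were sought among 11248 genes. For Ttn they were Kmt2a (r = 0.954) and Macf1 (0.941), and for Obsl1 Ep400 (0.962), Mdc1 (0.961) and Uggt1 (0.958). Myom1 was followed by Twnk (0.962), Ptpn14 (0.961) and Sptbn1 (0.953), and Myom2 by Myh14 (0.942), Myo10 (0.93) and Zfp319 (0.917). For Myom3 the closest were Abat (0.9), Tmem108 (0.889) and Enpp5 (0.881). The longest GENCODE transcript measured 3488 nt for Twnk and 23495 nt for Macf1.

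Transcript length moved with the group differences. In MYBPC3 deletion against nontransgenic hearts Spearman's rho across 13678 genes between the longest transcript and the log2 difference was -0.227, and the median log2 difference was -0.19 over 153 genes of 12000 nt or more. In compound against MYBPC3 deletion hearts rho was 0.117 and that median 0.14, and in the interaction rho was 0.232 and that median 0.21. In HRC variant against nontransgenic hearts rho was -0.186 and that median -0.10, and in compound against nontransgenic hearts -0.089 and -0.08. In compound against HRC variant hearts they were 0.122 and 0.02. By library, the median deviation of 131 well-read genes of that length from their mean over all libraries was -0.204, -0.376 and 0.035 in MYBPC3 deletion replicates 1, 2 and 3 and -0.21, 0.091 and 0.176 in nontransgenic replicates 1, 2 and 3, where Obsl1 deviated by -0.482, -0.621 and -0.031 and by -0.021, 0.179 and 0.408 on the same log2 scale. For HRC variant replicates 1, 2 and 3 the median deviation was -0.079, 0.274 and 0.076, and that of Obsl1 0.027, 0.239 and 0.047. For compound replicates 1, 2 and 3 it was 0.151, 0.048 and 0.18, and that of Obsl1 0.129, 0.023 and 0.101. Ttn, whose longest GENCODE transcript has 106824 nt, belongs to the class of 12000 nt or more. In replicates 1, 2 and 3 it deviated by -0.534, -0.34 and -0.209 in MYBPC3 deletion hearts and by -0.314, -0.116 and 0.175 in nontransgenic hearts. In the same order it deviated by -0.221, 0.524 and 0.289 in HRC variant hearts and by 0.125, 0.127 and 0.493 in compound hearts. The log2 difference of Ttn was -0.28 in MYBPC3 deletion against nontransgenic hearts and 0.41 in compound against MYBPC3 deletion hearts. It was 0.11 in HRC variant against nontransgenic hearts. Obsl1, Myom1, Myom2 and Myom3 have longest transcripts of 5679, 5648, 5075 and 5575 nt and are not in the class of 12000 nt or more. The 4535 genes of 4000 to 8000 nt had a median of -0.05 in MYBPC3 deletion against nontransgenic hearts. In compound against MYBPC3 deletion hearts their median was 0.03. The part of length in the results for the 5 genes was not tested.

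**Figure D4:**
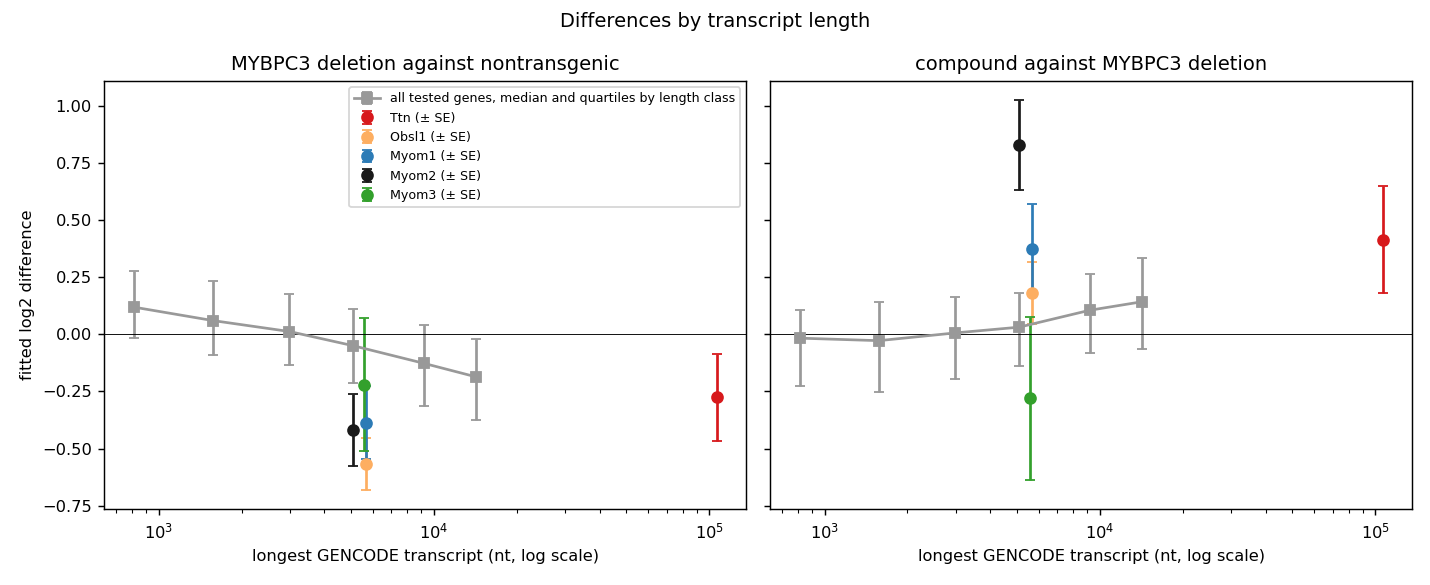
Fitted log2 difference (vertical axis) against the longest GENCODE transcript (horizontal axis, nt, log scale) for MYBPC3 deletion against nontransgenic hearts and for compound against MYBPC3 deletion hearts. Squares with bars are the median and quartiles of all tested genes in each length class, drawn at the class's median length, and circles are the 5 genes ± SE. Long genes tend below 0 on the left and above 0 on the right, and Myom2 at 0.83 lies above the upper quartile of its length class.

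Atrial markers were low in all compound hearts, as given above. With the mean level of 14 tested atrial markers as a covariate, the Myom2 log2 difference between compound and MYBPC3 deletion hearts was 0.69 (SE 0.25; edgeR adjusted p = 1.0), that of Ttn 0.35, that of Obsl1 0.27 and that of Myom1 0.19 (SE 0.25), next to 0.37 without the covariate. The Obsl1 log2 difference between MYBPC3 deletion and nontransgenic hearts was -0.56 with the covariate. B-cell markers summed to 73.1 CPM in MYBPC3 deletion replicate 2 and to 37.8 CPM in nontransgenic replicate 2, against at most 8.02 CPM in the other libraries. The Myom2 log2 difference between compound and MYBPC3 deletion hearts was 0.76 (SE 0.19) without MYBPC3 deletion replicate 2 and nontransgenic replicate 1, the library with the lowest scaling factor (0.8903), an alternative chosen after seeing the data.

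In MYBPC3 deletion against nontransgenic and in compound against MYBPC3 deletion hearts, most partners of the M-band had the signs of Ttn, Myom1 and Myom2. None was called. This list held 10 genes, 8 of them lower by sign in MYBPC3 deletion than in nontransgenic hearts, with a median log2 difference of -0.13, and 8 higher by sign in compound than in MYBPC3 deletion hearts, with a median of 0.23 against 0.014 over all genes. Both counts, here and for the titin partners below, rest on the same MYBPC3 deletion hearts and are not independent. In MYBPC3 deletion against nontransgenic hearts Unc45b, a myosin chaperone, had -0.41 (SE 0.14, edgeR adjusted p = 0.477). Fhl1 had the smallest p of the list in compound against MYBPC3 deletion hearts and went the other way. Its log2 difference there was -0.34 (SE 0.19, edgeR adjusted p = 0.891). By sign, 4 genes were higher and 6 lower in HRC variant than in nontransgenic hearts, and 5 higher and 5 lower in compound than in nontransgenic hearts.

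Titin's partners at the Z-disc, the spring and the kinase domain numbered 15, with 10 lower by sign in MYBPC3 deletion than in nontransgenic hearts (median -0.12), 13 higher by sign in compound than in MYBPC3 deletion hearts (median 0.13), and none called. Ankrd23, a stress-responsive ankyrin repeat protein that binds the titin spring, had a log2 difference of 0.94 (SE 0.28; edgeR adjusted p = 0.605) between HRC variant and nontransgenic hearts and of -0.67 (SE 0.23; 0.667) between compound and HRC variant hearts. Its relative Ankrd1 had 0.53 (SE 0.23; 0.767) in HRC variant against nontransgenic hearts. Smyd2, a methyltransferase found at the titin spring, had 0.53 (SE 0.23; 0.862) in compound against MYBPC3 deletion hearts. Of the 6 regulators of titin splicing, none was called in any comparison, and Rbm20, which controls the skipping of spring exons, had -0.28 (SE 0.20) in MYBPC3 deletion against nontransgenic hearts.

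Among 9 thick filament genes none was called either, and the list did not move one way. By sign 4 were higher and 5 lower in compound than in MYBPC3 deletion hearts. The list holds Myl4, Myl7 and Mybphl, which are also among the atrial markers, and their part in this count was not tested. Mybpc3 had a log2 difference of -0.60 (SE 0.16; edgeR adjusted p = 0.357) and Myh6, the alpha heavy chain of adult cardiac myosin, of -0.53 (SE 0.15; 0.384) in MYBPC3 deletion against nontransgenic hearts. Between compound and MYBPC3 deletion hearts Mybpc3 had 0.59 (SE 0.20; 0.862) and Myh6 0.38 (SE 0.18; 0.862), next to the 0.83 of Myom2. Myl4, the atrial light chain, had -4.67 (SE 2.02, edgeR adjusted p = 0.862) in the same comparison, beside the low atrial markers of compound hearts. Mybphl had -4.56 there (SE 2.05, edgeR adjusted p = 0.862).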

How the data were processed

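Heart mRNA was enriched with oligo(dT) and sequenced as DNA nanoballs, per the labels' protocols. HISAT, Bowtie2, DESeq2 and the build GRCm38.p6 appear in the submitters' processing notes, and the sources used here give neither the role and version of each tool nor the counting tool. The authors deposited 1 table with an expected count, a TPM and an FPKM per gene and sample, and log2 fold changes with DESeq2 q-values between groups, per the file headers. The 12 FPKM columns were not used. Each log2 fold change in the authors' deposited table sets the group named last over the group named first. Of the deposited expected counts 94.3% were whole, with no tolerance, and all were rounded. A spreadsheet had turned 25 symbols into dates, which were restored from the gene identifiers, and 1 line without values was dropped.

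The rounded counts were analysed with edgeR 4.0.16 in R 4.3.3, in a robust quasi-likelihood fit with group and sex over 12 samples (7 residual degrees of freedom; common biological coefficient of variation 21.5%). EdgeR's filter at a minimum count of 10 kept 13849 genes and removed 3530. Correlations used log2 CPM with a prior count of 2. DESeq2 1.42.0 and limma-voom (limma 3.58.1) were alternatives. Correlations and levels were computed with Python 3.11.15, pandas 2.3.3 and SciPy 1.17.1, and transcript lengths came from GENCODE M21. Genes named were the 5 genes, Mybpc3, Hrc, the 3 genes most correlated with each (mean log2 CPM of at least 1, without predicted, sex-linked or mitochondrial genes), and members of 4 partner lists with the smallest p, at most 4 a list and comparison. Some genes that this rule names are not reported here. The Myom2 to Myom1 ratio was added after values were seen. The genes and lists were chosen with earlier results of these data known.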

Additional observations from a re-analysis of the deposited data

How the results depend on the processing

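EdgeR called no gene in any of the 6 comparisons, and limma-voom, DESeq2 size factors, no filter, no sex term, females alone, the atrial covariate and the removal of 2 libraries together called none either. DESeq2 called 92 genes in MYBPC3 deletion against nontransgenic, 25 in HRC variant against nontransgenic, 38 in compound against nontransgenic, 6 in compound against MYBPC3 deletion, 45 in compound against HRC variant and 50 in the interaction. Of the 5 genes it called 1 each in the first, the fourth and the last of these. With only the groups compared, edgeR called 1 gene in MYBPC3 deletion against nontransgenic, 15 in compound against nontransgenic and 57 in compound against MYBPC3 deletion, none of the 5 among them, and this setting gives no interaction. Leaving out 1 library at a time, it called 0 to 8 genes in HRC variant against nontransgenic, 0 to 3 in compound against nontransgenic, 0 to 13 in compound against HRC variant, 0 to 5 in the interaction and 0 in both other comparisons. The 8 and the 5 came without HRC variant replicate 1, which also gave 4 in compound against HRC variant; the 3 and the 13 came without HRC variant replicate 3; 1 gene each came without nontransgenic replicate 1 (compound against nontransgenic) and without compound replicate 3 (HRC variant against nontransgenic). The cause of these changes was not tested.

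The labels do not say whether replicate numbers pair the samples, and the correlations showed no sign of it. With 3 samples a group this check cannot exclude a pairing. Over 18 same-number pairs the correlation of deviations from the group means averaged -0.003 (-0.396 to 0.374), against 0.003 for other pairs, and 2 of 12 samples correlated best with their own number. With the replicate block edgeR called 1 gene in the interaction and 0 elsewhere, and the Myom2 log2 difference between compound and MYBPC3 deletion hearts was 0.78.

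The sign turned for some values near 0. Myom1 in compound against nontransgenic hearts, at -0.01, was 0.10 without a sex term, 0.035 in females alone, 0.031 with only the groups compared, 0.078 with the replicate block and 0.025 without the pair of libraries. With the atrial covariate Myom3 was 0.041 in compound against MYBPC3 deletion and 0.11 in compound against HRC variant, Ttn was -0.0045 and Obsl1 0.026 in compound against HRC variant. Leaving out 1 library at a time gave ranges across 0 for Myom1 (-0.086 to 0.043 in compound against nontransgenic, -0.291 to 0.0091 in HRC variant against nontransgenic, -0.016 to 0.284 in compound against HRC variant), for Ttn (-0.157 to 0.217 in compound against HRC variant, -0.072 to 0.301 in HRC variant against nontransgenic), for Obsl1 (-0.066 to 0.064) and Myom3 (-0.203 to 0.034) in compound against HRC variant, for Myom3 in the interaction (-0.063 to 0.35) and for Myom2 in HRC variant against nontransgenic (-0.042 to 0.221). Myom2 in compound against MYBPC3 deletion stayed between 0.787 and 0.886, and Obsl1 in MYBPC3 deletion against nontransgenic between -0.627 and -0.496. Divided by the median in place of the longest transcript length, Ttn, Myom2 and Myom1 had 1590, 1330 and 604 CPM per kb against 31.2, 196 and 252, which turned their order round.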
